A study of Mus musculus with 14 samples.

Results

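The genes described are Slits, netrins and their receptors, the secreted or membrane-bound cues that steer growing axons and the proteins on the axon that read them. They are a fixed list of 10 genes: the ligands Slit1, Slit2, Slit3, Ntn1, Ntn4 and Ntng1 and the receptors Robo1, Robo2, Dcc and Unc5c. All 10 were found, by Entrez identifier, in both of the authors' deposited tables, which together hold 16060 genes. The genes were chosen by family, with their log2 fold changes and adjusted p-values at D10 and D5 already known, so their counts and p-values describe the comparisons and are no independent evidence about the family.

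The RNA came from mouse embryonic stem cells differentiated towards neurons in culture, all of the line GLI1-FTA in the A2Lox.cre background, in which a transgene is switched on by doxycycline. GLI1 is one of the GLI transcription factors of the Hedgehog pathway, an activator that is also a target gene of the pathway. GLI1 OE samples received 500 ng/ml doxycycline for 48 h, between days 3 and 5, and were then washed. There were 3 GLI1 OE samples at day 10 (D10, labelled neurons, 5 days after washout) and 4 at day 5 (D5, labelled neural progenitor cells). The control samples, 3 at D10 and 4 at D5, were untreated cells of the same line, so GLI1 and doxycycline cannot be told apart. A single line was used on both days, and the labels do not say whether replicates were separate cultures, so the p-values measure only the spread between these samples, which may be technical. The tables used here give each gene's log2 fold change, average level and p-value by day, with no value per library. The depth of each sample is therefore unknown, and the overlap of the groups and the number of samples that follow a direction cannot be given.

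Slit proteins are large secreted proteins that repel axons through Robo receptors. Netrin-1, the product of Ntn1, attracts axons through Dcc and repels them through Unc5 receptors paired with Dcc. In the embryonic spinal cord the floor plate, the ventral midline that also makes Sonic hedgehog, secretes both Slits and netrin-1. Commissural neurons, which cross that midline, grow towards it with Dcc and are kept from crossing back by Robo1 and Robo2. Netrin-4 is mainly a basement membrane protein, and netrin-G1, the product of Ntng1, is tethered to the membrane and binds the adhesion protein NGL-1 instead of Dcc.

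Slit2, which was higher on both days, is shown here by the DNA before its start site, because members that move together raise the question of which letters their promoters hold. The stretch is mouse chr5:47982905-47983137, plus strand, in RefSeq's GRCm38.p6, and ends 18 bases before the RefSeq start site. Capitals mark GC boxes (GGGCGG or its complement CCGCCC) and a TATA box (TATAAA).
Slit2 upstream: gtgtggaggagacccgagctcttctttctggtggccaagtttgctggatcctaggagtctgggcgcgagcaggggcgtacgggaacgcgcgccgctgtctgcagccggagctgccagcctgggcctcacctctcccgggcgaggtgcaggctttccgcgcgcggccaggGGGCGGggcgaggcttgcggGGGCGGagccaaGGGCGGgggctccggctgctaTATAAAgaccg
It held 3 GC boxes, and its TATA box began 28 bases before the RefSeq start site. GENCODE M21 annotates the 17 bases between the stretch and that site as exon. The distance is therefore given for the RefSeq start site only. RefSeq windows of 250 bases before a start site were at hand for 7 of the 10 genes, 9 windows in all, of which 3 belong to Robo2. The genes with no such window were Slit1, Ntn1 and Dcc. Slit2 could therefore not be compared with Slit1 and Ntn1, the other members higher on both days. GENCODE M21 annotates all of the Ntng1 and Unc5c windows and 232 of the 250 bases of the Slit3 window as exon, so these are not sequence upstream of every annotated transcript. The GLI consensus GACCACCCA was found on either strand in 0 of these 9 windows and in 0.225% of all 32851 RefSeq windows of that length. Written with a free base, as GACCNCCCA, a pattern that includes the first, it was also in 0 of the 9 windows and in 0.868% of all windows. GC boxes were in 4 of the 9 (Slit2, Slit3, Ntn4 and Ntng1), against 32.7% of all windows. The TATA letters were in 1 of the 9 (Slit2), against 12.4% of all windows. The letters CCAAT, also searched on either strand, were in 0 of the 9, against 33.8% of all windows. The absence of the GLI or CCAAT letters says only that these windows do not hold them.

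Slit2 and Slit3 also carry within their gene bodies the hairpins of one microRNA, miR-218, whose arm miR-218-5p is identical from both genes in RefSeq (bases 2 to 8, the seed, in capitals).
mmu-miR-218-5p: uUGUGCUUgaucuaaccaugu
Libraries were made from polyadenylated RNA, so the microRNA itself was not measured, and only the host genes are described.

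**Figure D1:**
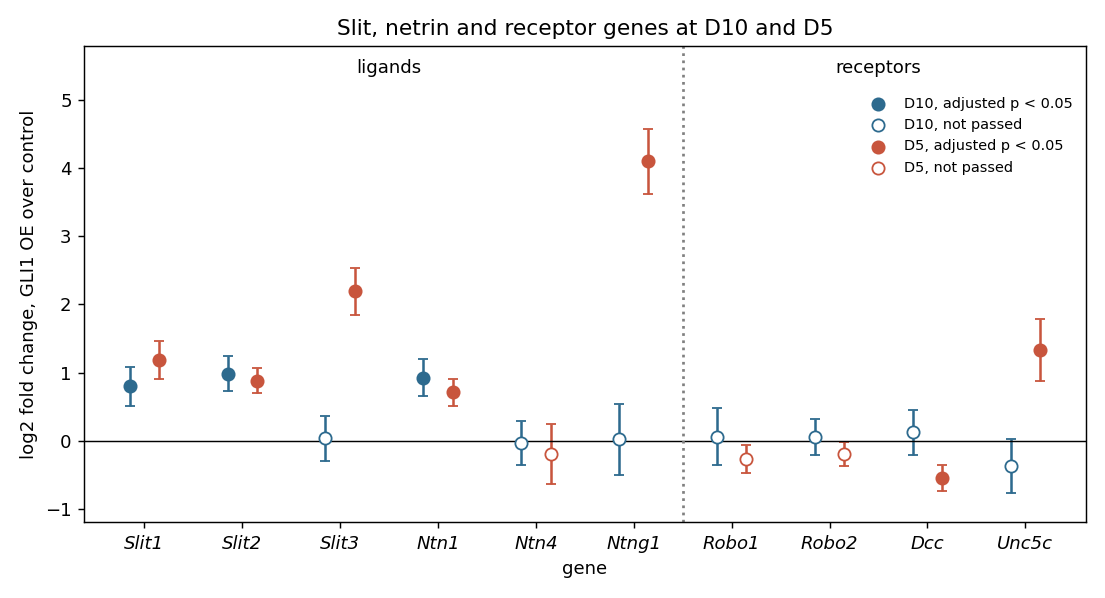
Log2 fold change of GLI1 OE over control (vertical axis) for the 10 genes (horizontal axis) at D10 (left point of each pair) and D5 (right point). Bars are 95% intervals from the implied SE, filled points passed the authors' adjusted p of 0.05, and Slit1, Slit2 and Ntn1 are the genes filled on both days.

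The first comparison asks how these genes stood at D5, at the end of the 48 h pulse. The induced gene itself, Gli1, had a log2 fold change of 4.79 in the authors' deposited table for D5 (adjusted p = 1.12e-81), a value in which the transgene and the endogenous gene are not separated. At D5, 7 of the 10 guidance genes passed the authors' adjusted p of 0.05, 6 higher and 1 lower in GLI1 OE cells, where 4.44% of all 15108 genes passed, 2.34% higher and 2.1% lower. Since the list was drawn up with this comparison known, nothing is read from that contrast of shares. Their median log2 fold change in the authors' deposited table was 0.80, against 0.0015 over all genes. In bulk RNA a change in the number of cells that make a transcript cannot be told from a change in the amount per cell.

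Ligands make up 5 of the 6 genes that were higher. Ntng1 (Entrez 80883) rose the most among the 10, to a derived mean of 21.1 CPM (counts scaled to a common library total) in GLI1 OE cells against 1.23 CPM in control cells. That is a 17.2-fold difference, a log2 fold change of 4.10 in the authors' deposited table (adjusted p = 9.02e-62, implied SE 0.24), and Ntng1 ranked 12 from the top among all genes ordered by log2 fold change. The implied SE is the log2 fold change divided by the normal deviate of its p-value, and the group means are derived from the average level and the fold change.

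All 3 Slit genes were higher at D5, by different amounts. Slit3 (Entrez 20564) had a derived mean of 26.3 CPM in GLI1 OE cells and 5.76 CPM in control cells, with a log2 fold change of 2.19 in the authors' deposited table (adjusted p = 1.12e-32, implied SE 0.18). Slit1 (Entrez 20562) stood at 56.4 CPM in GLI1 OE cells and 24.8 CPM in control cells, a log2 fold change of 1.19 in the authors' deposited table (adjusted p = 1.26e-14, implied SE 0.14). For Slit2 (Entrez 20563) the derived means were 61.3 CPM in GLI1 OE cells and 33.3 CPM in control cells, and the log2 fold change in the authors' deposited table was 0.88 (adjusted p = 1.95e-18, implied SE 0.09). The 95% interval of the Slit3 log2 fold change, from 1.85 to 2.54, lay above those of Slit1, from 0.91 to 1.46, and of Slit2, from 0.70 to 1.06. The difference between genes was not tested, since they were measured in the same libraries.

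Of the netrins, Ntn1 was higher and Ntn4 did not pass. Ntn1 (Entrez 18208) was already abundant, at 321 CPM in GLI1 OE cells and 196 CPM in control cells. Its log2 fold change in the authors' deposited table was 0.71 (adjusted p = 2.77e-10, implied SE 0.10). Ntn4 (Entrez 57764) was low in both groups, at 3.76 CPM in GLI1 OE cells and 4.29 CPM in control cells. In the authors' deposited table its log2 fold change was -0.19 and its unadjusted p 0.395, with an interval from -0.63 to 0.25 that does not show equality.

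The receptors did not move in a common direction at D5. Dcc (Entrez 13176), the attractive netrin receptor, was 1.47-fold lower, at 47.2 CPM in GLI1 OE cells and 69.3 CPM in control cells. Its log2 fold change in the authors' deposited table was -0.55 (adjusted p = 1.43e-06, implied SE 0.10). Unc5c (Entrez 22253), a repulsive netrin receptor, was 2.52-fold higher from a low level, at 6.45 CPM in GLI1 OE cells and 2.56 CPM in control cells. In the authors' deposited table it had a log2 fold change of 1.33 (adjusted p = 6.21e-07, implied SE 0.23). Annotation places an antisense gene, Gm15688, across exon sequence of Unc5c, and Gm15688 itself was not found in either table. The labels call the reads stranded but name a TruSeq RNA kit (v2) that does not itself mark strand, and no source used here states whether reads were assigned by strand. Reads of Unc5c and Gm15688 may therefore not be told apart.

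The Slit receptors Robo1 and Robo2 missed the threshold at D5. Robo1 (Entrez 19876) had a log2 fold change of -0.27 in the authors' deposited table (adjusted p = 0.169, unadjusted p = 0.0111), at 108 CPM in GLI1 OE cells and 131 CPM in control cells. Robo2 (Entrez 268902) stood at -0.20 in the authors' deposited table (adjusted p = 0.311, unadjusted p = 0.0264), at 66.2 CPM in GLI1 OE cells and 76.1 CPM in control cells. Robo1 passed, as lower, only when the authors' p-values were rescaled within bins of expression (adjusted p = 0.0206), a setting in which 5.12% of all genes passed. Robo2 passed under none of the alternatives run. At an unadjusted p under 0.05, a mark that 10.7% of all genes reached, 9 of the 10 guidance genes would have counted.

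**Figure D2:**
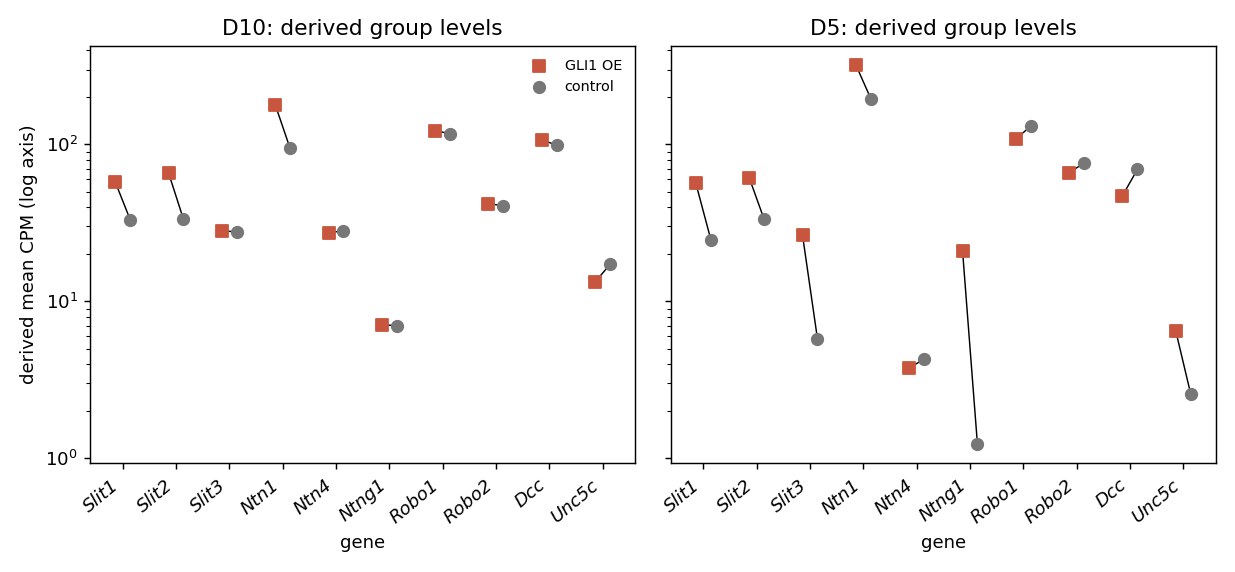
Derived mean level in CPM on a log axis for GLI1 OE (squares, left of each pair) and control (circles, right), at D10 in the left panel and D5 in the right, with no error since no library values were used. Slit1, Slit2 and Ntn1 slope down towards control in both panels, while Slit3 and Ntng1 are level at D10.

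The second comparison asks what was left 5 days after washout. Gli1 missed the threshold at D10, with 0.57 on the log2 scale (adjusted p = 0.780, unadjusted p = 0.00161) in the authors' deposited table. The interval of this Gli1 value, from 0.22 to 0.92, lay above 0, and Gli1 ranked 30 by p-value among all 15744 genes. Its derived means were 12.3 CPM in GLI1 OE cells and 8.29 CPM in control cells. Missing the threshold therefore does not show that Gli1 was back at its control level. At D10, 3 of the 10 guidance genes passed, where 0.0826% of all 15744 genes passed. All 13 genes that passed were higher, these 3 among them. The list was drawn up with this comparison known too, so the share is given without reading. None of the 10 was called lower by the authors' test, and neither was any of the 15744 genes. Of the 10, 0 had an unadjusted p under 0.05 in that direction, where 102 of all 15744 genes did. In either direction 1.53% of all genes reached that mark. The 10 log2 fold changes had a median of 0.05 in that day's table, the authors' deposited table, against 0.0027 over all genes.

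The genes higher at D10 were Slit2, Ntn1 and Slit1. Slit2 had a derived mean of 65.9 CPM in GLI1 OE cells and 33.4 CPM in control cells, a log2 fold change of 0.98 in the authors' deposited table (adjusted p = 9.96e-10, implied SE 0.13), and the second smallest p-value of that day. Ntn1 stood at 179 CPM in GLI1 OE cells and 94.3 CPM in control cells, with a log2 fold change of 0.93 in the authors' deposited table (adjusted p = 1.06e-07, implied SE 0.14). Slit1 was at 57.7 CPM in GLI1 OE cells and 33.2 CPM in control cells, with a log2 fold change of 0.80 in the authors' deposited table (adjusted p = 8.15e-05, implied SE 0.14). Each of these 3 differences was less than 2-fold, so a 2-fold minimum left 0 of the 10 called at D10 (0.0381% of all genes) and 4 at D5 (1.65% of all genes).

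The other 7 genes did not pass at D10. Slit3 was at 28.2 CPM in GLI1 OE cells and 27.6 CPM in control cells, a log2 fold change of 0.03 in the authors' deposited table with an interval from -0.30 to 0.37. Ntng1 was at 7.09 CPM in GLI1 OE cells and 7.01 CPM in control cells, with a log2 fold change of 0.016 in the authors' deposited table and an interval from -0.50 to 0.54. Both intervals leave out the D5 values of these genes. Unc5c stood at 13.3 CPM in GLI1 OE cells and 17.2 CPM in control cells, with a log2 fold change of -0.37 in the authors' deposited table (unadjusted p = 0.0690), below 0, whereas the D5 value was above 0. Ntn4, Robo1, Robo2 and Dcc had D10 log2 fold changes between -0.04 and 0.12 in the authors' deposited table.

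The third comparison asks whether the response of a gene differed between the days. The libraries of D10 and D5 are different samples, so the log2 fold changes were subtracted and tested with their implied SEs, which rest on the authors' p-values, over all 14792 genes in both tables. In this approximate test, 4 of the 10 guidance genes differed, where 1.24% of all genes did. Both comparisons were known when the genes were chosen, so these differences too are no independent evidence. From the authors' p-values, the difference of D10 minus D5 was -4.09 for Ntng1 (95% interval -4.79 to -3.38, adjusted p = 7.22e-27). By the same test from the authors' values it was -2.16 for Slit3 (95% interval -2.64 to -1.68, adjusted p = 9.98e-16) and -1.70 for Unc5c (95% interval -2.30 to -1.10, adjusted p = 6.93e-06). For Dcc the authors' values gave 0.68 (95% interval 0.29 to 1.06, adjusted p = 0.0478). This call was lost at an adjusted p threshold of 0.01, where 0.872% of all genes differed, and with Holm's adjustment, where 0.602% did. It was kept when the authors' p-values were rescaled within bins of expression (adjusted p = 6.77e-06). At D10 only 1.53% of all genes had an unadjusted p under 0.05, fewer than that mark lets through when no gene differs. The implied SEs and intervals that rest on D10 may therefore be too wide.

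Slit1, Slit2 and Ntn1 kept a positive log2 fold change on both days. For Slit2 the difference of D10 minus D5 was 0.10 (95% interval -0.22 to 0.42), and for Ntn1 it was 0.21 (95% interval -0.12 to 0.55). For Slit1 the authors' values gave -0.39 (95% interval -0.79 to 0.0063, unadjusted p = 0.0538, adjusted p = 1). These intervals show how large a difference the data allow and not that the days were alike. Among all genes in both tables, 6 were called higher on both days, namely Slit1, Slit2 and Ntn1 with Shh, Spon1 and Col22a1, which is 0.0406% of the 14792. Shh is the ligand of the Hedgehog pathway, and Spon1 encodes a protein secreted by the floor plate. The intervals of Robo1 (-0.14 to 0.79), Robo2 (-0.07 to 0.57) and Ntn4 (-0.39 to 0.70) also included 0.

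**Figure D3:**
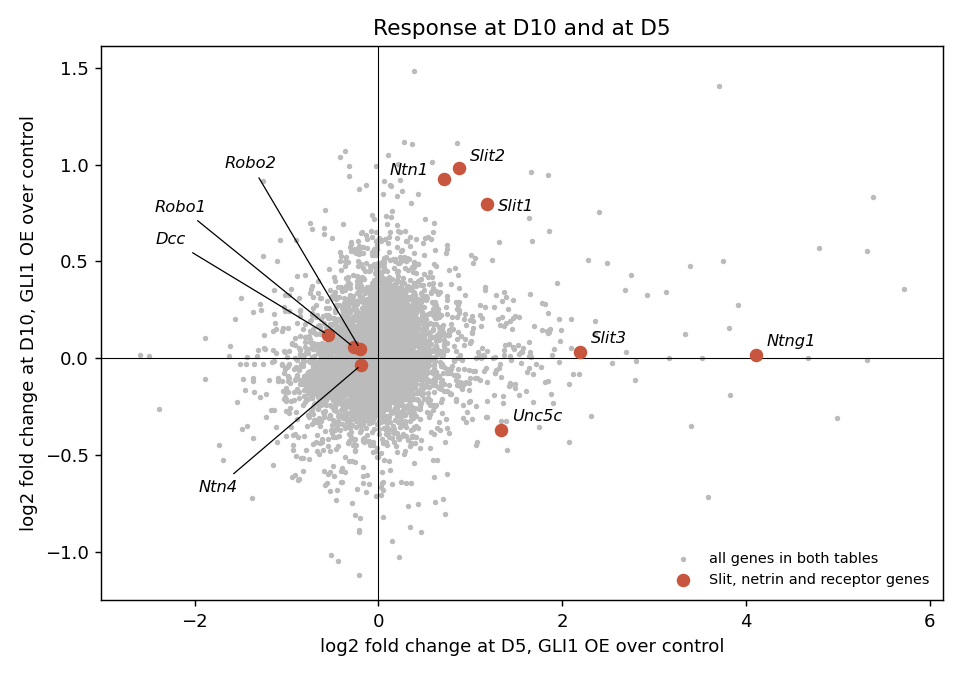
Log2 fold change of GLI1 OE over control at D10 (vertical axis) against D5 (horizontal axis) for the genes in both tables (grey) with the 10 guidance genes in red. Slit1, Slit2 and Ntn1 lie to the upper right, Slit3 and Ntng1 far to the right at a D10 value near 0, and Unc5c to the right below 0.

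The levels themselves set these responses beside the control levels of each day. The tables of the days were normalized separately, so levels of D10 and D5 are set side by side without a test. In control cells, Slit3 was at 27.6 CPM at D10 and 5.76 CPM at D5, Ntng1 at 7.01 CPM at D10 and 1.23 CPM at D5, and Unc5c at 17.2 CPM at D10 and 2.56 CPM at D5. These are the 3 genes that were higher at D5 alone, and for each the control level was higher on the later day. The D5 level of Slit3 in GLI1 OE cells, 26.3 CPM, was close to the 27.6 CPM of D10 controls, while that of Ntng1, 21.1 CPM, was above its D10 control level and that of Unc5c, 6.45 CPM, below it. Among genes higher on both days, control Slit2 was at 33.4 CPM at D10 and 33.3 CPM at D5, and control Slit1 at 33.2 CPM at D10 and 24.8 CPM at D5. Control Ntn1 was lower on the later day, at 94.3 CPM at D10 and 196 CPM at D5. Ntn4 stood at 28.1 CPM in D10 controls and 4.29 CPM in D5 controls with no call on either day. The control cultures also differed between days in markers of other cells. The 8 epithelial and endoderm markers described below summed to 1679 CPM in D10 controls and 475 CPM in D5 controls. The part of the mix of cells in these levels was not tested.

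Levels were compared between genes only per kilobase of the longest coding transcript in GENCODE M21. Ntn1 had the highest level of the 10 at D5, at 54.7 CPM per kb in GLI1 OE cells and 33.3 CPM per kb in control cells, and Robo1 followed at 14.3 CPM per kb in GLI1 OE cells and 17.3 CPM per kb in control cells. Unc5c was the lowest at D5 in GLI1 OE cells, at 0.669 CPM per kb, and Ntng1 the lowest in control cells, at 0.219 CPM per kb. At D10 Ntn1 led again, at 30.5 CPM per kb in GLI1 OE cells and 16.1 CPM per kb in control cells. In D10 controls Robo1, at 15.5 CPM per kb, was near to it. Whether neighbours in this order differ beyond their spread cannot be said without library values.

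Within the Slit family the summed level per kilobase was 21.1 CPM per kb in GLI1 OE cells and 8.81 CPM per kb in control cells at D5. Slit3 made up 23.9% of that sum in GLI1 OE cells and 12.5% in control cells. Slit2 made up 29.1% in GLI1 OE cells and 37.9% in control cells, and Slit1 47.0% in GLI1 OE cells and 49.5% in control cells. At D10 the sum was 22.2 CPM per kb in GLI1 OE cells and 14.5 CPM per kb in control cells, and the share of Slit3 was 24.4% in GLI1 OE cells and 36.5% in control cells. These shares depend on the transcript lengths and carry no error.

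Other genes of the pathway were taken from a list of 49 further ligands, receptors and signal transducers. At D5, 1 of the 46 measured was higher and 6 were lower in the authors' deposited table, where 2.34% of all genes were higher and 2.1% lower, and the median log2 fold change was -0.02. All 7 calls fell on ligands and receptors. With Holm's adjustment, under which 1.6% of all genes passed, 2 of the 46 remained. Among the 6 measured other ligands, Draxin, a secreted repellent that binds Dcc and netrin-1, was lower at -0.64 in the authors' deposited table (adjusted p = 0.00409). Ntng2, the sister gene of Ntng1, missed the threshold with 0.62 on the log2 scale (adjusted p = 0.188) in the authors' deposited table.

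Of the 14 other receptors measured at D5, 1 was higher and 5 were lower. The higher one, Unc5a, belongs with Unc5c to the repulsive netrin receptors and stood at 1.03 in the authors' deposited table (adjusted p = 2.15e-06). Robo3, the Robo family member that commissural axons need to cross the midline, was lower, at 45.0 CPM in GLI1 OE cells and 77.5 CPM in control cells. Its log2 fold change in the authors' deposited table was -0.79 (adjusted p = 2.91e-05, implied SE 0.15). Dscam, an immunoglobulin-family receptor reported to bind netrin-1, stood at -0.76 (adjusted p = 0.0215) in the authors' deposited table. Lrrc4, which encodes a relative of the netrin-G1 partner that binds netrin-G2, stood at -0.47 (adjusted p = 0.000284) in the authors' deposited table.

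The Flrt genes encode membrane proteins that bind Unc5 receptors, and Flrt3 also binds Robo1. Flrt3 had a log2 fold change of -0.54 (adjusted p = 0.00918) and Flrt2 of -0.53 (adjusted p = 0.0492) in the authors' deposited table for D5. Unc5b (0.48) and Unc5d (-0.40) did not pass in the authors' deposited table, and neither did Neo1, a relative of Dcc, at -0.11.

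The machinery inside the cell, from the Slit-Robo GTPase activators Srgap1, Srgap2 and Srgap3 to Trio, Dock1 and Rac1, showed no call. Of the 26 transducers, 0 passed the authors' test at D5 and 0 had an unadjusted p under 0.05, where 4.44% and 10.7% of all genes did. In a list of 26, 0 passing is near the share over all genes, and nothing is read from either count. Their log2 fold changes in the authors' deposited table ran from -0.38 to 0.13. At D10, 0 of the 47 other pathway genes measured passed the authors' test and 0 had an unadjusted p under 0.05. Over all genes these shares were 0.0826% and 1.53%, so 0 of 47 is near them and nothing is read from it. The median of the 47 was 0.05 in the authors' deposited table. Of the 46 in both tables, 0 differed between the days, where 1.24% of all genes did, which is again near and is not read. Robo3 came nearest, with a difference of D10 minus D5 of 0.90 from the authors' values (95% interval 0.37 to 1.43, adjusted p = 0.0700).

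**Figure D4:**
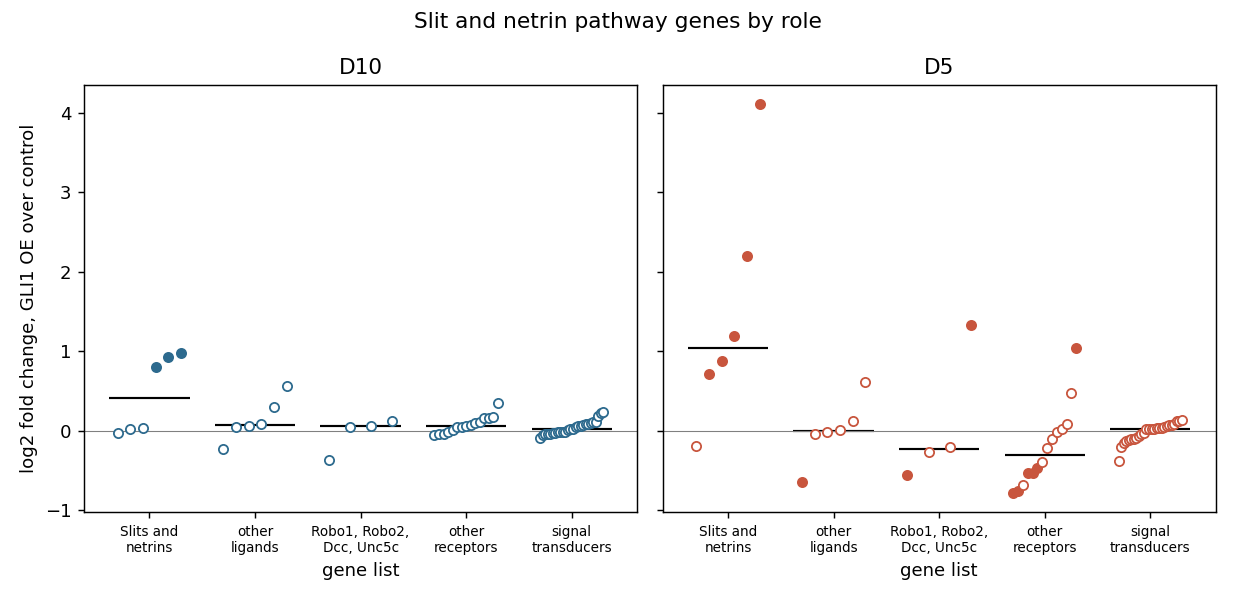
Log2 fold change of GLI1 OE over control (vertical axis) for each measured gene of 5 lists by role (horizontal axis), at D10 in the left panel and D5 in the right. Filled points passed the adjusted p of 0.05 and black lines are medians; the transducers lie between -0.38 and 0.23 in both panels.

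Marker genes of the cell types that make these cues and receptors moved with some of the results. Without Slit2 and Ntn1, 4 of 7 floor plate markers were measured at D5, and Spon1, Shh, Foxa2 and Foxa1 were all higher in the authors' deposited table. Their summed derived level was 140 CPM in GLI1 OE cells and 42.9 CPM in control cells. At D10, 6 of the 7 were measured, and Shh and Spon1 were higher in the authors' deposited table. The sum over the 6 was 199 CPM in GLI1 OE cells and 132 CPM in control cells. Foxa2 (0.04), Foxa1 (0.25) and Corin (0.30) did not pass at D10 in the authors' deposited table. By unadjusted p under 0.05, 2 of the 6 were higher and 1 lower, the lower being Lmx1a at -0.43 in the authors' deposited table (unadjusted p = 0.0209). In the approximate test between days, 4 of the 4 markers in both tables differed, where 1.24% of all genes did. Their differences of D10 minus D5 ran from -2.30 for Shh to -0.90 for Spon1. For Slit1, Slit2 and Ntn1 that test gave no call. The part of floor plate cells in the Slit and Ntn1 differences was not tested.

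Beside the lower Dcc and Robo3 at D5, 5 of 12 neuron markers (Nefm, Nefl, Gap43, Stmn2 and Tubb3) were lower in the authors' deposited table and 0 were higher. Counted by unadjusted p under 0.05, 7 of the 12 were lower and 1 higher. The higher one was Rbfox3, at 0.53 in the authors' deposited table (unadjusted p = 0.0222). Dcx (-0.0026), Elavl3 (0.05), Elavl4 (0.11) and Snap25 (-0.02) did not pass in the authors' deposited table, so the neuron markers did not move together. The sum over all 12 was 814 CPM in GLI1 OE cells and 1112 CPM in control cells. Of the 8 dorsal and commissural neuron markers, 5 were measured at D5, and the authors' deposited table had Pou4f1, Lhx1, Lhx5 and Lhx2 lower, with a sum of 22.8 CPM in GLI1 OE cells and 44.1 CPM in control cells. Lhx9, Barhl1 and Barhl2 were not in that table. At D10, 0 of the 12 neuron markers passed and 0 had an unadjusted p under 0.05 in the authors' deposited table, with a sum of 2505 CPM in GLI1 OE cells and 2451 CPM in control cells. Of the 8 dorsal and commissural markers, 0 passed at D10 and 2 had an unadjusted p under 0.05, both below 0, with a sum of 71.3 CPM in GLI1 OE cells and 66.8 CPM in control cells. The part of neuron number in the receptor differences was not tested.

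Marker genes of other cell types were also looked up. Epithelial and endoderm markers were lower for 4 of 8 genes at D5 (Gata4, Gata6, Cdh1 and Epcam) in the authors' deposited table, with a sum of 345 CPM in GLI1 OE cells and 475 CPM in control cells. By unadjusted p under 0.05, 6 of the 8 were lower and 1 higher, the higher being Afp at 0.86 in the authors' deposited table (unadjusted p = 0.0200). At D10 they were abundant in both groups, at 1607 CPM in GLI1 OE cells and 1679 CPM in control cells of cultures labelled neurons. Mesenchyme markers gave 2 higher (Pdgfrb and Col3a1) and 1 lower (Pdgfra) of 6 measured at D5, and 2 higher and 2 lower by unadjusted p under 0.05. Both higher genes were low, Pdgfrb at 2.99 CPM and Col3a1 at 3.71 CPM in GLI1 OE cells. Pdgfra stood at 59.3 CPM in GLI1 OE cells and 104 CPM in control cells. These 6 genes summed to 81.2 CPM in GLI1 OE cells and 123 CPM in control cells. Motor neuron markers gave 0 calls among 4 measured at D10 and 2 at D5, with 1 at an unadjusted p under 0.05 on each day. Of the 7 endothelial markers 3 were measured on either day and 0 passed, with 0 at an unadjusted p under 0.05, and Pecam1, Tie1, Emcn and Cldn5 were in neither table. Neural progenitor markers gave 0 calls of 7 on either day, with 1 at D10 and 0 at D5 under an unadjusted p of 0.05. Beside the counts of all these marker lists, 0.0826% of all genes passed at D10 and 4.44% at D5. An unadjusted p under 0.05 was reached by 1.53% of all genes at D10 and 10.7% at D5.

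The genes whose pair of log2 fold changes lay nearest to a guidance gene were looked up among genes whose average log2 CPM reached 1 on both days, by the Euclidean distance in log2 units over the comparisons of D10 and D5. The gene nearest to Slit2 was Ntn1, and the gene nearest to Ntn1 was Slit2, at a distance of 0.17. Slit1 came next for Slit2, at 0.36, followed by Col5a2 at 0.42. For Ntn1, Col5a2 was next at 0.34 and Sulf1 followed at 0.46. Nearest to Slit1 were Adamts12 at 0.29, Nhs at 0.32 and D430041D05Rik at 0.34, none of which passed at D10.

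For genes higher at D5 alone, the nearest patterns were those of other genes with a rise at D5 and a D10 value near 0. Around Slit3 lay Hpca at 0.13, Ppp1r14c at 0.20 and Cobl at 0.20. Around Ntng1 lay Vtn at 0.32, Hsd11b2 at 0.32 and Epha8 at 0.35, and around Unc5c lay Slc35d2 at 0.14, Aatk at 0.21 and Pcp4l1 at 0.26. Dcc sat in a dense part of the plane, where 360 genes lay within 0.25 of it, with Pdgfc at 0.015, Cdkn2b at 0.020 and Gfra1 at 0.04 the nearest. By contrast, 0 genes lay within 0.25 of Slit1 or Ntng1, 1 of Slit2, 1 of Ntn1, 2 of Unc5c and 4 of Slit3. These distances describe 2 comparisons and say nothing of shared control.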

How the data were processed

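Per the labels' protocols, polyadenylated RNA of 14 samples was read as single-end reads. The aligner, the counting, the test and the genome build were not given in the sources consulted here. The authors deposited, per the file headers, a log2 fold change, an average log2 CPM, a p-value and an adjusted p-value (FDR) for each Entrez gene and day. The base of 2 was checked for the average log2 CPM, whose antilogs total 1001340 at D10 and 1001540 at D5. It was assumed for the fold change, whose direction is that of Gli1. The deposited FDR equals a Benjamini-Hochberg adjustment within 3.41e-05. Symbols came from RefSeq (GRCm38.p6) for 94.6% of identifiers on either day.

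Computed here with Python 3.11.15 and SciPy 1.17.1 were the implied SEs, 95% intervals from them, the two-sided normal test between days with Benjamini-Hochberg adjustment, and group means. A mean level m and fold F give 2mF/(1+F) CPM for GLI1 OE and 2m/(1+F) CPM for control, which is approximate at low levels. Genes without a finite implied SE (288 at D10 and 227 at D5) entered as no difference. The procedures were tested on simulated data. No library values were used, so no SD, depth or exclusion of a replicate is given.

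Members and lists were chosen with earlier results of these data known. One further floor plate marker is not reported here and was left out of that list's counts and sums. Named are all members, called pathway genes, the 3 nearest patterns and called markers. Ntng2, Unc5b, Unc5d, Neo1, some transducers, Gm15688, Lmx1a, Afp and the genes higher on both days were named after their values were seen. The same holds for Corin, Rbfox3, Dcx, Elavl3, Elavl4 and Snap25.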

Additional observations from a re-analysis of the deposited data

Results flagged for a closer look

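For 4 of the 10 genes the log2 fold change of GLI1 OE over control differed between D10 and D5 in the approximate test from implied SEs, where 1.24% of all genes did. The genes were chosen with both comparisons known. The difference, D10 minus D5, was -4.09 for Ntng1, -2.16 for Slit3 and -1.70 for Unc5c, each not passing at D10 and higher at D5. It was 0.68 for Dcc, which did not pass at D10 and was lower at D5.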

How the results depend on the processing

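A 2-fold minimum left 0 of the 10 guidance genes called at D10, in place of 3, and 4 at D5, in place of 7, with Slit2 and Ntn1 lost on both days, Slit1 at D10 and Dcc at D5. The other pathway genes called at D5 came to 1 with that minimum and 2 with Holm's adjustment, in place of 7. The other alternatives (an adjusted p of 0.01 or 0.1, an average log2 CPM of at least 1, rescaled p-values, centring on the median of all genes, and Holm's adjustment for the 10 genes) kept each count within 1.5 times. Centring moved each log2 fold change by 0.0027 at D10 and 0.0015 at D5, and the other alternatives act on calls and leave the log2 fold changes as they are. No paired analysis was possible because the tables hold no values per library, and for the same reason no replicate could be left out. Depth is unknown, so intervals rest on the authors' p-values alone.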
